A study of Sus scrofa with 32 samples.

Results

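KIT, IL7R, IL2RB, IL2RG, IL18R1 and IL12RB2 encode receptors through which lymphocytes receive growth factor and cytokine signals, and their transcripts were measured by single-cell RNA sequencing (scRNA-seq) in lymphocytes of the pig ileum and blood. The 6 genes were taken by symbol from the 25880 genes of the count matrices, with earlier results of these data known. The authors had already reported KIT and IL7R as higher in ileal innate lymphoid cells that express IL22. A rise of KIT and IL7R in such cells is therefore not an independent finding here. IL2RG had no symbol in the matrices and was found through its Ensembl identifier, ENSSSCG00000012397, whereas the 5 others were named there. In Sscrofa11.1, the pig assembly of the gene table used for positions, KIT (ENSSSCG00000008842) lies on chromosome 8 from 41402334 to 41492306 and IL7R (ENSSSCG00000016832) on chromosome 16 from 21300141 to 21330156. IL2RB (ENSSSCG00000029668) lies on chromosome 5 from 10610094 to 10650315, and IL2RG on chromosome X from 57143568 to 57151242. IL18R1 (ENSSSCG00000032795) lies on chromosome 3 from 51803383 to 51844758, and IL12RB2 (ENSSSCG00000003799) on chromosome 6 from 145210251 to 145292399. Reads from a 3′ assay were counted per gene, so exons, introns and isoforms were not told apart.

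The samples came from 2 mixed-breed pigs, 7 weeks old, for which the labels give no treatment and no genetic change. Pig 1 was labelled female and pig 2 male. Each pig gave 3 ileal cell suspensions and 1 of blood. The ileum was dissected to hold only regions with Peyer's patches (PP), to hold none of them (non-PP), or as a complete cross section (whole ileum), and the ileal suspensions had been enriched for viable lymphocytes. The blood libraries were peripheral blood mononuclear cells (PBMC). The pig, as labelled, was the replicate throughout (n = 2), and sums of different gates in a pig came from the same libraries.

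KIT is the receptor tyrosine kinase for stem cell factor, best known from mast cells, progenitors and innate lymphoid cells (ILCs). IL7R is the alpha chain for interleukin (IL)-7, a survival factor for T cells and ILCs, and pairs with IL2RG, the common gamma chain shared by the receptors for IL-2, IL-4, IL-7, IL-9, IL-15 and IL-21. IL2RB completes the signalling receptor for IL-2 and IL-15, whereas IL18R1 and IL12RB2 are chains of the receptors for IL-18 and IL-12, cytokines that drive interferon-gamma in natural killer (NK) and T cells.

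Transcripts were counted as unique molecular identifiers (UMIs), and cells were kept that had at least 550 genes and passed a minimum of UMIs and a limit on mitochondrial UMIs, which left 48629 cells, 3776 to 7704 in a library, from 21134542 to 40111934 UMIs in a library. Gates were set on UMIs of a few genes. Each lymphocyte gate allowed at most 2 UMIs of each reference list, of B cell, myeloid, mast cell, epithelial or stromal genes. A reference gate, such as the mast cell gate, required 0 UMIs of CD3E and at least 3 of its list, above every other list. T cell gates required CD3E, and the CD4 gate (helper T cells), the CD8B gate (cytotoxic αβ T cells) and the TRDC gate (γδ T cells) each required their own gene and none of the other two. The innate gates required 0 UMIs of CD3E, CD4, CD8B and TRDC, with IL22 detected for the IL22 gate and with CTSW detected without IL22 for the CTSW gate. In ileum these held 884 CD4, 2618 CD8B, 4158 TRDC, 245 IL22 and 656 CTSW cells. In blood they held 592, 1116 and 1076 T cells in that order, 1767 CTSW cells and 0 IL22 cells, so the IL22 gate could be described in ileum only. Levels are given as CPM, the UMIs of the gene per 1000000 UMIs counted in the gate, and a CPM is compared for the same gene between gates, not between genes.

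The gates were checked with genes that had not set them, apart from the B cell list, of which each gate allowed at most 2 UMIs in a cell. In the ileal IL22 gate, the group 3 ILC gene IL23R, which encodes a subunit of the IL-23 receptor, was detected in 18.8% of cells, and CD3G, a subunit of the T cell receptor complex, in 20.4%. CD3G was detected in 61.7% of ileal and 74.3% of blood CTSW gate cells, and any of 4 T cell genes (CD3D, CD3G, CD5 and CD6) in 70.7% and 81.2%. CD3G transcripts are also known from NK cells and ILCs, so these shares do not tell T cells from innate cells in the CTSW gates. GNLY, a granule protein of cytotoxic cells, was detected in 55.9% of ileal and 95.9% of blood CTSW gate cells. It was also found in 42.4% of IL22 gate cells, and in 40.5% to 64.4% of cells in the ileal and 70.9% to 85.9% in the blood T cell gates. GNLY thus does not tell NK cells from T cells here. The other NK cell or group 1 ILC genes checked ran from 1.52% (NCR1) to 50.6% (KLRK1) of ileal CTSW gate cells. Any gene of that list was found in 75.5% of IL22 gate cells and 75.5% of ileal CTSW gate cells. For the group 3 ILC genes checked, these shares were 78.0% and 64.8%. UMIs of the B cell list, which includes CD79A, MS4A1 and PAX5, were found in 31.8% of IL22 gate cells and 23.0% of ileal CTSW gate cells, against 5.31% to 6.56% in the ileal T cell gates.

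A library went against its label. Transcripts of 4 Y-linked genes summed to 40.8 CPM in the library labelled whole ileum pig 1, a pig labelled female, against 37.8 to 42.3 CPM in the 4 libraries of pig 2 and at most 0.149 CPM in the other libraries of pig 1. Each call of a member is therefore given without that library where leaving it out ended the call. Otherwise the library was kept under its label, so ileal values of pig 1 summed over dissections include it. Statements on both pigs, the pig as a block and leaving out a pig rest on the labels in the same way. Cell barcodes recurred between libraries, with 1319 found in the kept cells of 2 or more. The number shared by a pair of libraries lay on either side of that expected if barcodes were drawn independently. It ran from 38 against 60.1 expected (PP pig 2 and PBMC pig 1) to 70 against 53.4 (whole ileum pig 1 and PBMC pig 2). The libraries labelled whole ileum pig 1 and whole ileum pig 2 shared 41, against 60.5 expected.

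**Figure D1:**
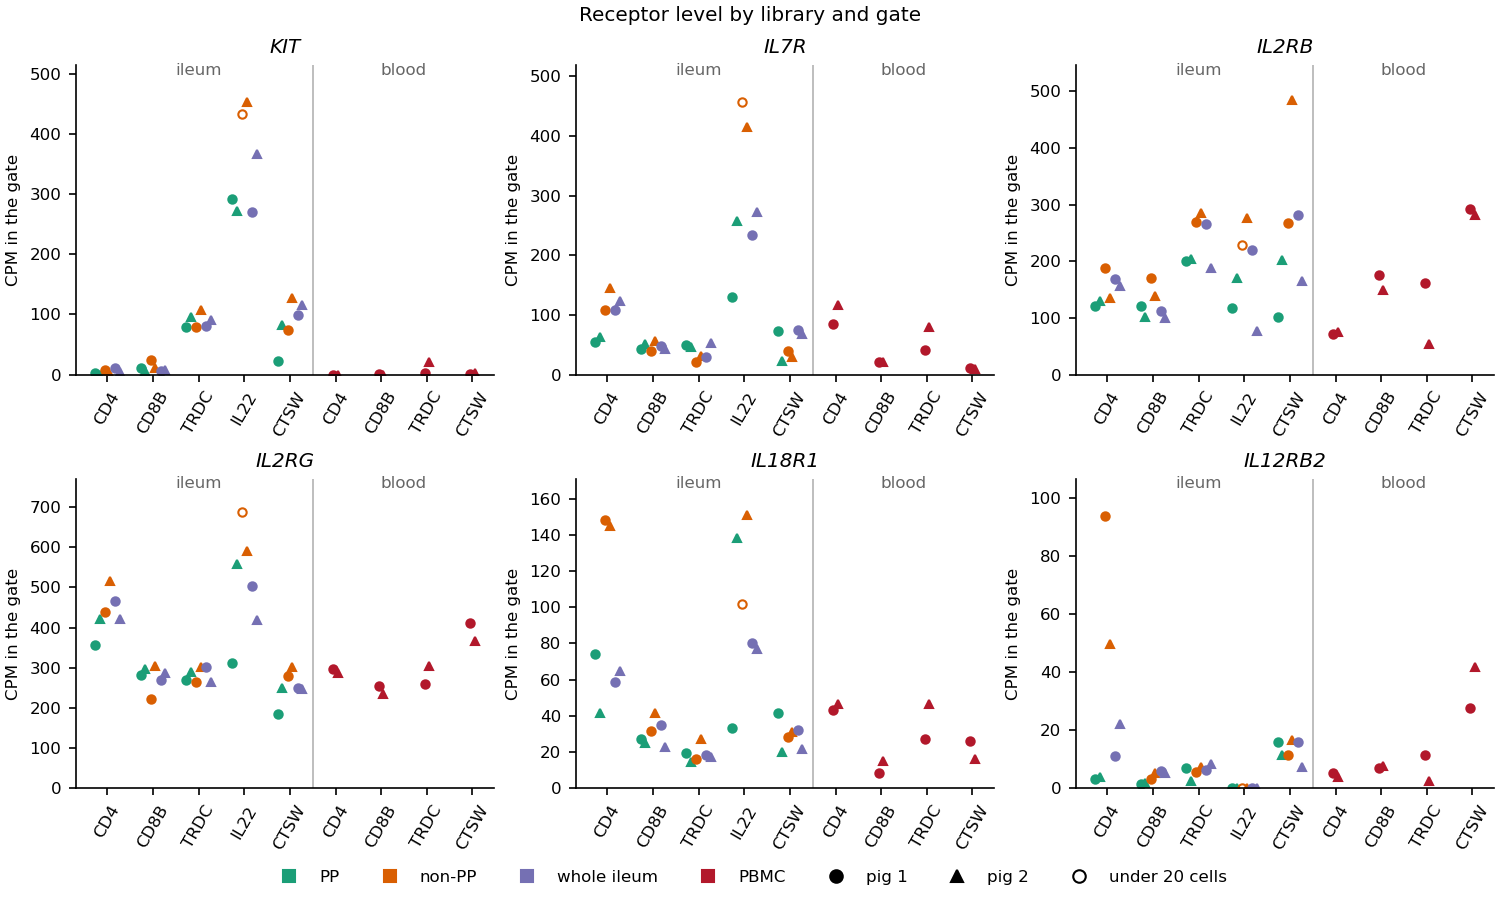
Level of each receptor in CPM (y axis, linear from 0) in each gate (x axis), with 1 point for each library, colored by dissection, circles for pig 1 and triangles for pig 2; open points mark fewer than 20 cells. In the IL22 gate every library held at least 270 CPM of KIT, above the highest library of the 4 other lymphocyte gates, 127 CPM.

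KIT gave 3138 UMIs in ileal cells and 271 in blood cells. In ileum, 36.7% of the UMIs lay in the TRDC gate, 30.3% in cells of no gate, 10.9% in the mast cell gate and 8.29% in the IL22 gate, although IL22 gate cells made up only 0.692% of ileal cells. Of the 581 ileal KIT-positive cells outside every gate, 431 had a CD3E UMI. In blood, 45.4% of the KIT UMIs lay in the myeloid gate and 14.4% in the TRDC gate. IL12RB2 was the scarcest of the 6 genes, with 476 UMIs in ileum and 465 in blood, and 37.6% of those in blood lay in the CTSW gate. IL2RG was the most widely detected, with 23079 cells, 3125 of them in the ileal B cell gate.

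Ileal gates were compared on UMIs summed per pig and gate by the quasi-likelihood F-test of edgeR, with Benjamini-Hochberg adjustment over all 7854 genes, and "rose" or "fell" is used for an adjusted p under 0.05. Against the mean of the 4 other gates, 4 members rose and 1 fell in the IL22 gate, where 10.7% of all genes were called. Against the 3 T cell gates, 2 members rose in the CTSW gate (7.40% of genes called, 11.2% with the pig as a block). In the CD4 gate, 4 rose and 1 fell against the CD8B and TRDC gates (15.8% of genes, 24.1% with the block). In the TRDC gate, 2 rose against the CD8B gate (4.75% of genes, 13.2% with the block). The median log2 fold change of the members was 1.15, 0.36, 0.81 and 0.35 in these comparisons in turn, against -0.03 to 0.01 over all genes. These comparisons share T cell sums and are not independent of each other.

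**Figure D2:**
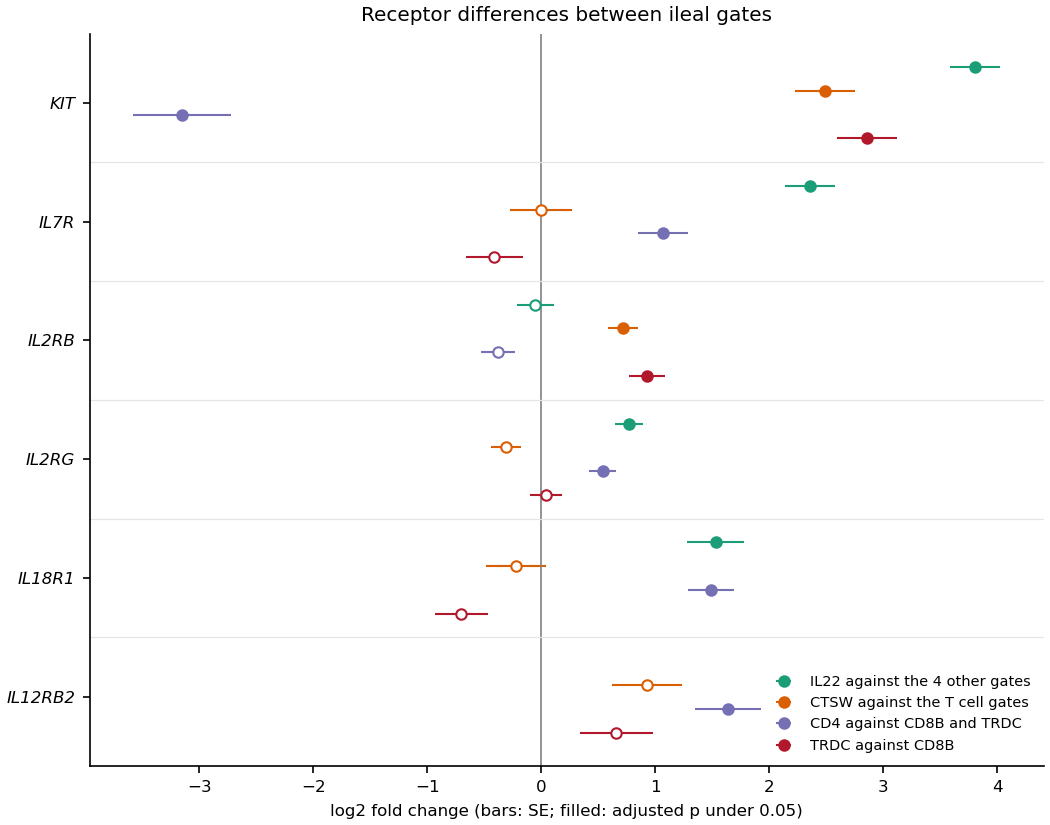
Log2 fold change (x axis) of each receptor (y axis) between ileal gates, 1 color for each comparison; bars are standard errors (SE) and filled points have an adjusted p under 0.05. KIT lies at 3.81 for the IL22 gate and at -3.15 for the CD4 gate, and IL12RB2 has no point for the IL22 gate because no UMI was counted there.

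KIT was highest in the IL22 gate among the lymphocyte gates. Its level there was 298 CPM in pig 1 and 334 in pig 2, against 66.1 and 110 in the CTSW gate and 79.7 and 101 in the TRDC gate. In the CD8B gate it was 15.0 and 8.94 CPM, and in the CD4 gate 5.61 and 1.64. The IL22 gate stood above all others in both pigs, the TRDC and CTSW gates overlapped each other, and the CD8B and CD4 gates did not overlap with each other or with those above. For reference, the mast cell gate held 770 and 726 CPM and the ileal B cell gate 0.309 and 1.09. The mast cell gate (119 ileal cells) was set by a list with FCER1A, which IL22 gate cells also carried. It is therefore not shown to hold mast cells only. In barcodes of 10 to 100 UMIs, which hold free RNA rather than cells, KIT ran from 2.48 to 10.9 CPM in the ileal libraries, so that the CD4 gate lay within that range in pig 1 and below it in pig 2, and the CD8B gate above it in pig 1 and within it in pig 2.

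The gain of KIT in the IL22 gate was 3.81 log2 units (SE 0.22, adjusted p = 3.46e-07). KIT rose by 2.49 in the CTSW gate against the T cell gates (SE 0.26, adjusted p = 8.86e-05) and by 2.86 in the TRDC against the CD8B gate (SE 0.26, adjusted p = 1.15e-04), and it fell by 3.15 in the CD4 gate (SE 0.43, adjusted p = 3.23e-04). After each cell was thinned to the smallest number of UMIs allowed for a kept cell, 24.3% and 26.9% of IL22 gate cells carried KIT in pig 1 and pig 2 (39.5% and 39.7% unthinned), against 9.10% and 10.2% of TRDC gate cells. The same share in the ileal B cell gate, taken as background, was 0.0474% and 0.0898%, at median depths of 3460 UMIs there and 2857 in the IL22 gate.

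Cells of the IL22 gate were not alike in KIT. In the cells with 2 or more IL22 UMIs (64 and 81 cells), KIT stood at 532 and 428 CPM in pig 1 and pig 2, and in those with a single IL22 UMI (50 cells in each pig) at 21.1 and 185. The 4 other members detected in the gate were also higher in the cells with 2 or more IL22 UMIs in both pigs, for example IL7R at 337 and 408 CPM against 26.3 and 108. T cells with IL22 (339 and 220 cells with CD3E, in any T cell gate or none) held 61.6 and 49.0 CPM of KIT, below the cells with 2 or more IL22 UMIs in each pig. These splits use the gate gene itself, so they are a description without a test.

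**Figure D3:**
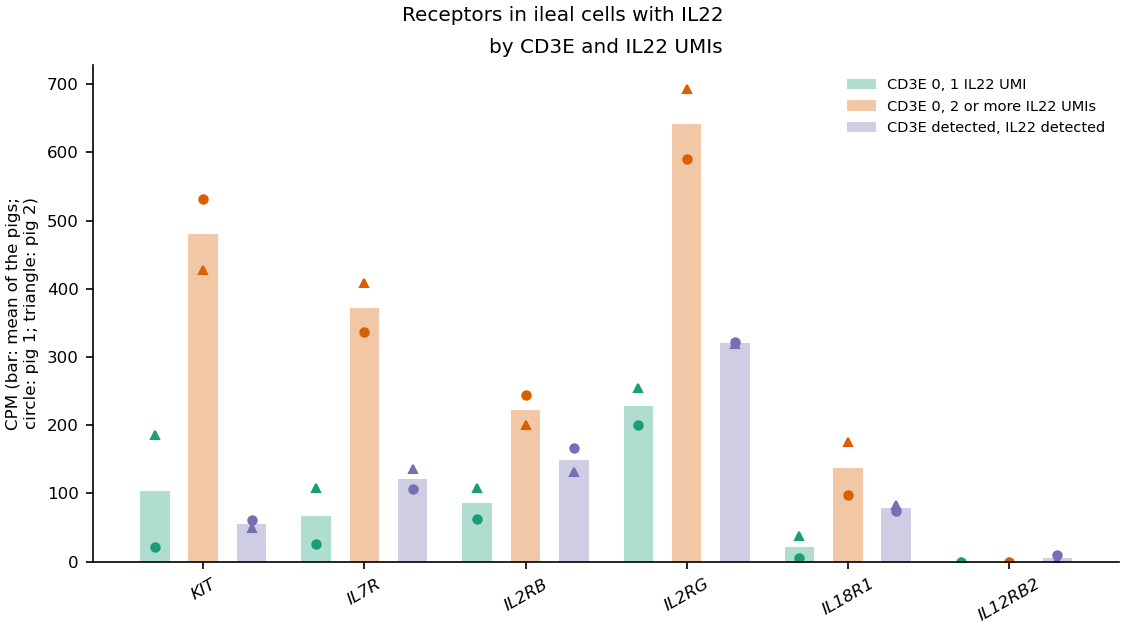
Level of each receptor in CPM (y axis, linear from 0) in ileal cells with IL22, for cells without CD3E and 1 IL22 UMI, cells without CD3E and 2 or more, and cells with CD3E; bars are means of the pigs, circles pig 1 and triangles pig 2. KIT, IL7R, IL2RB, IL2RG and IL18R1 are each highest in the cells with 2 or more IL22 UMIs, and no IL12RB2 UMI was counted in the cells without CD3E.

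Within the gate, KIT was lower in cells with UMIs of B cell or T cell genes and higher in cells with a UMI of the mast cell list. KIT was 454 CPM in the 167 IL22 gate cells without a UMI of the B cell list and 65.1 in the 78 with 1 or 2. Of the mast cell genes, FCER1A, the alpha chain of the IgE receptor, gave 71 UMIs in 51 of the 245 cells and HDC 1 UMI, while HPGDS, MS4A2 and GATA2 were at 0. All but GATA2 were on the mast cell list, of which the gate itself allowed at most 2 UMIs in a cell. KIT was 646 CPM in the 52 cells with a UMI of the mast cell list and 225 in the 193 without. KIT was 365 CPM in the 186 cells without CD3D or CD3G and 153 in the 59 with them. The call for KIT was kept when cells with CD3D or CD3G, or with mast cell list UMIs, were left out. No alternative left out the cells with B cell list UMIs. The part of B cell and T cell RNA in the level was not tested.

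IL7R had 2 high gates in ileum. It stood at 195 and 293 CPM in the IL22 gate of pig 1 and pig 2 and at 77.3 and 101 in the CD4 gate. The CD8B gate held 42.6 and 51.5 CPM, the CTSW gate 67.3 and 37.1 and the TRDC gate 30.4 and 40.3, and the CTSW gate overlapped with both of its neighbours. IL7R rose by 2.36 in the IL22 gate (SE 0.22, adjusted p = 2.19e-05) and by 1.07 in the CD4 gate (SE 0.22, adjusted p = 0.00592). The CD4 call was not kept without the library labelled whole ileum pig 1 (log2 fold change 0.96, adjusted p = 0.0535), without pig 2 (0.86, adjusted p = 0.0987) or with gates of 2 UMIs (0.79, adjusted p = 0.194). KIT and IL7R were found together in 71 of the 245 IL22 gate cells (29.0%), in 79 of 4158 TRDC gate cells (1.90%) and in 2 of 884 CD4 gate cells (0.226%).

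IL2RB, the chain for IL-2 and IL-15 signals, followed the γδ and CTSW gates. In ileum it was 251 and 241 CPM in the TRDC gate and 213 and 316 in the CTSW gate, which overlapped. The IL22 gate held 161 and 165 CPM, the CD4 gate 143 and 140 and the CD8B gate 139 and 118, so that the IL22 gate lay above the other two in both pigs. IL2RB rose by 0.93 in the TRDC against the CD8B gate (SE 0.16, adjusted p = 0.00532) and by 0.72 in the CTSW against the T cell gates (SE 0.13, adjusted p = 0.00515). It did not pass in the IL22 gate (adjusted p = 0.909). In the CD4 gate it missed the threshold at -0.38 (SE 0.15, adjusted p = 0.107) and passed it with the pig as a block (-0.39, adjusted p = 0.0380).

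IL2RB was higher in the TRDC than in the CD8B gate in each of the 6 ileal libraries, but neither call for it was kept under all alternatives. Without the library labelled whole ileum pig 1, the TRDC value was 0.85 (adjusted p = 0.200) and the CTSW value 0.59 (adjusted p = 0.197), and without pig 2 they were 0.84 (adjusted p = 0.0927) and 0.44 (adjusted p = 0.200). With gates on the gate gene alone, without the conditions on CD3E and the reference lists, the CTSW value was 0.08 (adjusted p = 0.849). In the CTSW gate, IL2RB was 359 CPM in the 448 cells with a CD3D or CD3G UMI and 93.6 in the 208 without. When the former were left out, a step chosen after seeing the data, the CTSW value turned to -0.71 (adjusted p = 0.0110).

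IL2RG was detected in every gate and was highest in the IL22 and CD4 gates. The ileal levels were 412 and 524 CPM in the IL22 gate and 400 and 440 in the CD4 gate, which overlapped. The CD8B gate held 253 and 298 CPM, the TRDC gate 276 and 290 and the CTSW gate 232 and 271, and the CD8B gate overlapped with both of these neighbours. IL2RG rose by 0.77 in the IL22 gate (SE 0.12, adjusted p = 0.00110) and by 0.54 in the CD4 gate (SE 0.12, adjusted p = 0.0108). The CTSW value of -0.31 (SE 0.13, adjusted p = 0.190) passed only with the pig as a block (adjusted p = 0.0366) or without cells carrying CD3D or CD3G (-0.66, adjusted p = 0.00874), and it was 0.08 with gates of 2 UMIs. The CD4 call was not kept without the library labelled whole ileum pig 1 (0.50, adjusted p = 0.109) or with gates of 2 UMIs (0.39, adjusted p = 0.0849), and without pig 2 the values were 0.46 in the CD4 gate (adjusted p = 0.135) and 0.58 in the IL22 gate (adjusted p = 0.0552). With gates set on the gate gene alone, so that cells with CD3E and cells with more UMIs of the reference lists could enter the IL22 gate, the IL22 value was 0.04 (adjusted p = 0.853). IL2RG was also counted in the ileal B cell gate, at a mean of 104 CPM (SD 4.26). That level lay below the free RNA of the ileal libraries, which held 119 to 187 CPM of IL2RG.

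IL18R1 was high in the same gates as IL7R. In the IL22 gate it was 55.4 CPM in pig 1 and 123 in pig 2, and in the CD4 gate 74.8 and 70.5, so that the order of these gates differed between the pigs. The CD8B gate held 31.6 and 31.8 CPM, the CTSW gate 34.8 and 25.3 and the TRDC gate 17.8 and 21.4, which was the lowest in both pigs. Free RNA of the ileal libraries held 13.1 to 20.1 CPM, so that the TRDC gate lay within that range in pig 1 and just above it in pig 2. IL18R1 rose by 1.53 in the IL22 gate (SE 0.25, adjusted p = 0.00190) and by 1.49 in the CD4 gate (SE 0.20, adjusted p = 3.14e-04). Without pig 2 the IL22 value was 0.83 (adjusted p = 0.155). In the TRDC against the CD8B gate it was -0.70 (SE 0.23, adjusted p = 0.122), which passed with the pig as a block (-0.71, adjusted p = 0.00943).

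IL12RB2 ran against KIT in the IL22 gate. No UMI was counted among 822233 UMIs of its 245 cells, which allows a share of cells with a UMI of up to 1.22%, against 190 UMIs among 27141725 in the 4 other gates together. The level was thus at least 1.92-fold lower (floor of 3 UMIs over the gate), and the fall passed the test (adjusted p = 0.0202). It was not kept without pig 1 (adjusted p = 0.131), without pig 2 (adjusted p = 0.133) or without cells carrying CD3D or CD3G (adjusted p = 0.0837). In the other ileal gates the level was 13.1 and 19.7 CPM for CD4, 15.1 and 12.7 for CTSW, 6.22 and 6.31 for TRDC and 3.74 and 4.21 for CD8B, so that CD4 and CTSW overlapped and the rest did not. IL12RB2 rose by 1.64 in the CD4 gate (SE 0.29, adjusted p = 0.00267; without pig 2, 1.32 and adjusted p = 0.0567). The CTSW value was 0.93 (SE 0.31, adjusted p = 0.112) and turned to -0.16 without cells carrying CD3D or CD3G.

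The same genes were then compared between ileum and blood within the 4 gates found in both, in a fit of 8849 genes. Blood levels of KIT were near 0: no UMI was counted in the CD4 gate, and the CD8B gate held 1.73 and 0 CPM in pig 1 and pig 2. The blood CTSW gate held 0.599 and 1.95 CPM of KIT, and the TRDC gate 2.56 and 21.0. Of these, only the TRDC gate of pig 2 lay well above the free RNA of blood, 2.55 CPM in pig 1 and 2.15 in pig 2. KIT was higher in ileum in every gate and pig, but the ileal CD4 gate and the ileal CD8B gate of pig 2 did not lie above the free RNA of ileum. Members called were 2 in the CD4 gate (10.5% of all genes called), 3 in the CD8B gate (13.1%, and 20.4% with the pig as a block), 2 in the TRDC gate (15.7%, and 24.1% with the block) and 4 in the CTSW gate (18.1%). The members' median log2 fold changes were 0.79, 0.64, -0.09 and 0.24 in that order, against -0.01 to 0.02 over all genes.

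**Figure D4:**
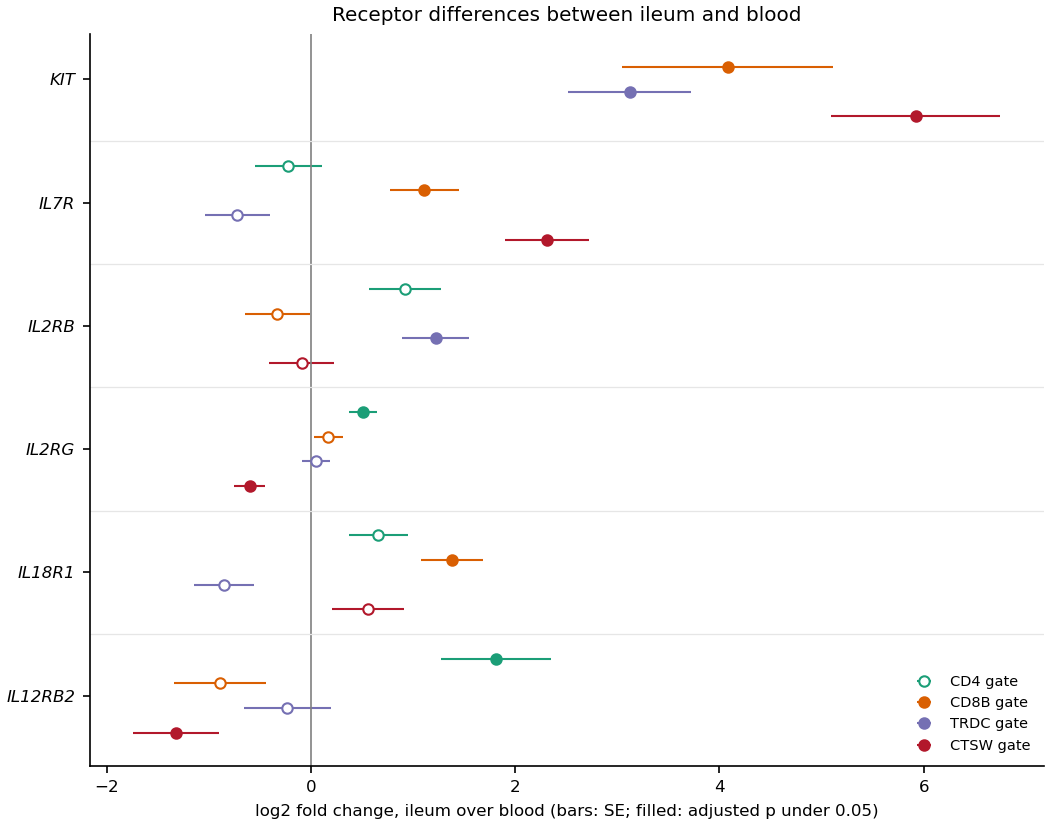
Log2 fold change of each receptor (y axis) between ileum and blood (x axis, above 0 higher in ileum) within 4 gates, 1 color for each gate; bars are SE and filled points have an adjusted p under 0.05. KIT lies at 3.12 to 5.92 in the 3 gates drawn, and the KIT point of the CD4 gate is left out because blood held no UMI there.

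KIT rose in ileum by 5.92 in the CTSW gate (SE 0.83, adjusted p = 3.98e-04), by 4.08 in the CD8B gate (SE 1.03, adjusted p = 0.0212) and by 3.12 in the TRDC gate (SE 0.60, adjusted p = 0.00387). The CD8B call rested on 4 blood UMIs and was not kept without pig 1 (adjusted p = 0.105) or without pig 2 (3.11, adjusted p = 0.218), and the TRDC call missed the threshold with DESeq2 (2.96, adjusted p = 0.0641). In the CD4 gate, 11 ileal UMIs against 0 in blood made KIT at least 3.50-fold higher in ileum (floor of 3 UMIs over the blood gate), which did not pass the test (adjusted p = 0.266). The ileal level there, 5.61 and 1.64 CPM, did not lie above the 2.48 to 10.9 CPM of free RNA in ileum, and the part of free RNA was not tested.

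IL7R was 11.4 and 10.1 CPM in the blood CTSW gate, within the 5.96 to 19.3 CPM of free RNA in blood, and rose there in ileum by 2.31 (SE 0.41, adjusted p = 0.00179). This call was not kept without pig 1 (1.87, adjusted p = 0.0649) or with gates on the gate gene alone (0.83, adjusted p = 0.0560). In the CD8B gate it was 21.6 and 21.7 CPM in blood and rose by 1.11 (SE 0.34, adjusted p = 0.0453), a call not kept without the library labelled whole ileum pig 1 (1.07, adjusted p = 0.0751), without pig 1 (1.22, adjusted p = 0.239), without pig 2 (1.01, adjusted p = 0.402) or under 6 other alternatives (0.93 to 1.14, adjusted p = 0.0516 to 0.188). In the CD4 gate blood held 84.5 and 117 CPM, which overlapped with ileum, and in the TRDC gate 40.5 and 80.1, where the difference was -0.72 (SE 0.32, adjusted p = 0.153). IL7R thus passed the test, higher in ileum, in 2 of the 4 gates tested, CD8B and CTSW.

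IL2RB in blood was 162 and 53.4 CPM in the TRDC gate, 176 and 149 in the CD8B gate, 71.5 and 75.6 in the CD4 gate and 292 and 282 in the CTSW gate. The difference in the TRDC gate was the only one that passed, at 1.22 (SE 0.33, adjusted p = 0.0228), and it was not kept without the library labelled whole ileum pig 1 (1.18, adjusted p = 0.0599) or without pig 2 (0.70, adjusted p = 0.0874). In the CD4 gate it was 0.92 (SE 0.35, adjusted p = 0.122), with both pigs higher in ileum. IL2RG was 296 and 288 CPM in the blood CD4 gate and 410 and 367 in the blood CTSW gate. It rose in ileum by 0.51 in the CD4 gate (SE 0.14, adjusted p = 0.0412) and fell by 0.60 in the CTSW gate (SE 0.15, adjusted p = 0.0122). Neither call was kept without pig 1 or without pig 2 (0.38 to 0.60 in the CD4 gate and -0.77 to -0.45 in the CTSW gate, adjusted p = 0.0563 to 0.475), and the CD4 call was not kept without the library labelled whole ileum pig 1 (0.42, adjusted p = 0.156) or under 5 other alternatives (0.33 to 0.56, adjusted p = 0.0533 to 0.122). With gates of 2 UMIs the CTSW value was -0.39 (adjusted p = 0.161).

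IL18R1 was 8.65 and 14.9 CPM in the blood CD8B gate and rose in ileum by 1.38 (SE 0.30, adjusted p = 0.00881). This call was not kept without pig 1 (1.07, adjusted p = 0.195), with the stricter cell filter (1.28, adjusted p = 0.0510) or with gates of 2 UMIs (0.98, adjusted p = 0.130). In the TRDC gate the order was the opposite, with 27.3 and 46.4 CPM in blood, and the difference of -0.85 (SE 0.29, adjusted p = 0.0624) passed with the pig as a block (-0.84, adjusted p = 0.0331). Cells without a CD2 UMI numbered 279 and 353 there in blood, against 268 and 176 with one, and 485 and 449 against 1811 and 1413 in ileum. In cells with CD2, IL18R1 was 15.6 and 19.6 CPM in ileum and 5.77 and 19.0 in blood. In those without, it was 27.3 and 27.9 against 69.9 and 67.5. The part of this mix in the difference was not tested. IL12RB2 was 27.5 and 41.9 CPM in the blood CTSW gate, above both ileal values, and fell in ileum by 1.32 (SE 0.42, adjusted p = 0.0450). In the CD4 gate it was 5.42 and 3.95 CPM in blood, with 5.11 and 5.36 CPM in the free RNA of blood, and rose in ileum by 1.81 (SE 0.54, adjusted p = 0.0494). Both IL12RB2 calls lay close to the threshold and were not kept without pig 1 (-1.73 and 2.30, adjusted p = 0.123 and 0.165), without pig 2 (-0.82 and 1.21, adjusted p = 0.547 and 0.591) or without the library labelled whole ileum pig 1 (-1.40 and 1.86, adjusted p = 0.0631 and 0.0586). The CTSW call was also lost under 8 other alternatives (-1.85 to -0.60, adjusted p = 0.0524 to 0.438) and the CD4 call under 7 (1.04 to 2.82, adjusted p = 0.0537 to 0.228).

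Whether the difference between ileum and blood was itself different in a gate was tested against the mean of the 3 other gates. For the CTSW gate 2 members were called among 1.82% of genes (4.33% with the pig as a block), with IL7R at 2.25 (SE 0.45, adjusted p = 0.0243) and IL2RG at -0.84 (SE 0.17, adjusted p = 0.0243). For the TRDC gate IL18R1 was called at -1.72 (SE 0.34, adjusted p = 0.0446), among 0.531% of genes (1.49% with the block), and IL7R at -1.79 (SE 0.39, adjusted p = 0.0743) passed only with the block (-1.78, adjusted p = 0.0144). For the CD4 gate no member passed and 0.859% of genes did (1.86% with the block), and IL12RB2 at 2.63 (SE 0.59, adjusted p = 0.0626) and IL2RG at 0.63 (SE 0.17, adjusted p = 0.106) passed only with the block (2.65, adjusted p = 0.0350, and 0.63, adjusted p = 0.0479). For the CD8B gate 0% of genes were called by edgeR, with 535 genes at an unadjusted p under 0.05. Without the library labelled whole ileum pig 1, IL18R1 (-1.74, adjusted p = 0.0849) and IL2RG (-0.85, adjusted p = 0.0580) were not called, and the call for IL7R was kept. These differences were not tested with a pig left out.

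PP and non-PP ileum were compared per library, in a fit of 7178 genes. IL12RB2 in the CD4 gate was the only member called. It was 3.22 and 3.78 CPM in the PP libraries of pig 1 and pig 2 and 93.8 and 49.5 in the non-PP libraries, with 11 and 22.3 in whole ileum. The libraries of each dissection did not overlap with those of the others, and whole ileum lay between. IL12RB2 fell by 4.28 in PP (SE 0.62, adjusted p = 0.00173), among 0.752% of genes called. The members' median there was -1.19 over 5 of them, KIT being left out with 2 UMIs in PP and 1 in non-PP, against 0.06 over all genes. The counts were small, with 3 and 2 UMIs in the 252 and 188 PP cells and 12 UMIs each in the 45 and 83 non-PP cells, and without pig 1 the value was -3.66 (adjusted p = 0.263). They lay in 3 and 2 cells in PP and in 7 cells each in non-PP. The B cell list summed to 38.6 and 30.2 CPM in the PP and 0 CPM in both non-PP CD4 gates, and the 7 NK cell or group 1 ILC genes KLRB1, KLRK1, NCR1, TBX21, EOMES, GNLY and XCL1 summed to 111 and 138 against 1789 and 950 CPM. Their part in the result was not tested.

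IL7R and IL18R1 lay the same way in the CD4 gate without passing. IL18R1 was 74.1 and 41.6 CPM in PP and 148 and 145 in non-PP, a difference of -1.32 (SE 0.38, adjusted p = 0.132). IL7R was 54.7 and 62.4 CPM in PP and 109 and 145 in non-PP, a difference of -1.19 (SE 0.38, adjusted p = 0.196). In the CTSW gate, IL2RB was 102 and 203 CPM in PP and 268 and 484 in non-PP, and the difference of -1.20 (SE 0.35, adjusted p = 0.0556) passed with the pig as a block (-1.23, adjusted p = 0.0292), where 3.66% of all genes were called without the block. No member was called in the CD8B gate (0.279% of genes), the TRDC gate (0.502%, and 1.06% with the block) or the IL22 gate (0.0697%). In the IL22 gate the non-PP library of pig 1 had 11 cells and was left out of the fit, so that the remaining non-PP library was assumed to vary like the other sums. KIT there was 292 and 271 CPM in PP and 433 and 453 in non-PP, all libraries shown. The B cell list in the IL22 gate summed to 259 and 152 CPM in PP and to 0 CPM in both non-PP libraries. The NK cell or group 1 ILC genes summed there to 1283 and 2785 against 4097 and 8268 CPM. In the CTSW gate the B cell list was 227 and 134 against 5.69 and 4.18 CPM, and the NK cell or group 1 ILC genes 3789 and 4598 against 15487 and 27526. Their part in the KIT and IL2RB values was not tested.

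The γδ T cells were split by CD2, which in pigs separates 2 populations, with 0 CD2 UMIs no proof of absence. No member was called, among 0.118% of genes in ileum (0.933% with the pig as a block) and 0.263% in blood (2.56% with the block). IL18R1 in blood came closest. It was 69.9 and 67.5 CPM in the CD2-zero cells of pig 1 and pig 2 and 5.77 and 19.0 in the CD2-detected cells, without overlap, a difference of 2.75 (SE 0.42, adjusted p = 0.0573) that passed with the pig as a block (2.75, adjusted p = 0.00281). IL7R lay the same way in ileum, with 46.0 and 83.6 CPM in CD2-zero and 26.7 and 28.1 in CD2-detected cells (1.31, SE 0.55, adjusted p = 0.948). IL2RB lay the opposite way in blood, with 96.6 and 21.4 CPM in CD2-zero and 195 and 95.1 in CD2-detected cells (-1.32, SE 0.55, adjusted p = 0.413). IL12RB2, with 2 UMIs in CD2-zero and 29 in CD2-detected blood cells, was too scarce for the fit, and the ratio of its levels was 10.8 (95% exact counting interval 2.74 to 93.7, counting error only). KIT in blood followed the pig more than CD2, at 1.27 and 14.6 CPM in CD2-zero and 3.21 and 29.3 in CD2-detected cells.

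Ileal TRDC and CD8B gate cells were further split by CTSW, the gene of a cysteine protease of cytotoxic cells. In the TRDC gate, KIT was 98.5 and 126 CPM in CTSW-detected and 45.2 and 48.1 in CTSW-zero cells. IL18R1 went the opposite way, at 11.7 and 17.0 against 29.1 and 30.5, with 13.1 to 20.1 CPM in the free RNA of ileum. Neither passed without the block (KIT 1.33, SE 0.26, adjusted p = 0.0678; IL18R1 -1.0, SE 0.20, adjusted p = 0.0788), among 0.638% of genes called. With the pig as a block 9.21% of genes and 5 members were called there: KIT at 1.31 (adjusted p = 2.57e-06), IL7R at 0.94 (adjusted p = 0.00311), IL18R1 at -1.02 (adjusted p = 0.00104), IL2RG at -0.29 (adjusted p = 0.0201) and IL2RB at -0.25 (adjusted p = 0.0399). In the CD8B gate 0.544% of genes were called without the block and 7.68% with it. IL7R was 58.6 and 61.7 CPM in CTSW-detected and 18.1 and 32.5 in CTSW-zero CD8B cells (1.39, SE 0.33, adjusted p = 0.134), and with the block it passed at 1.41 (adjusted p = 5.67e-05), as did KIT at 1.38 (adjusted p = 0.0293) and IL18R1 at -0.65 (adjusted p = 0.0272).

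**Figure D5:**
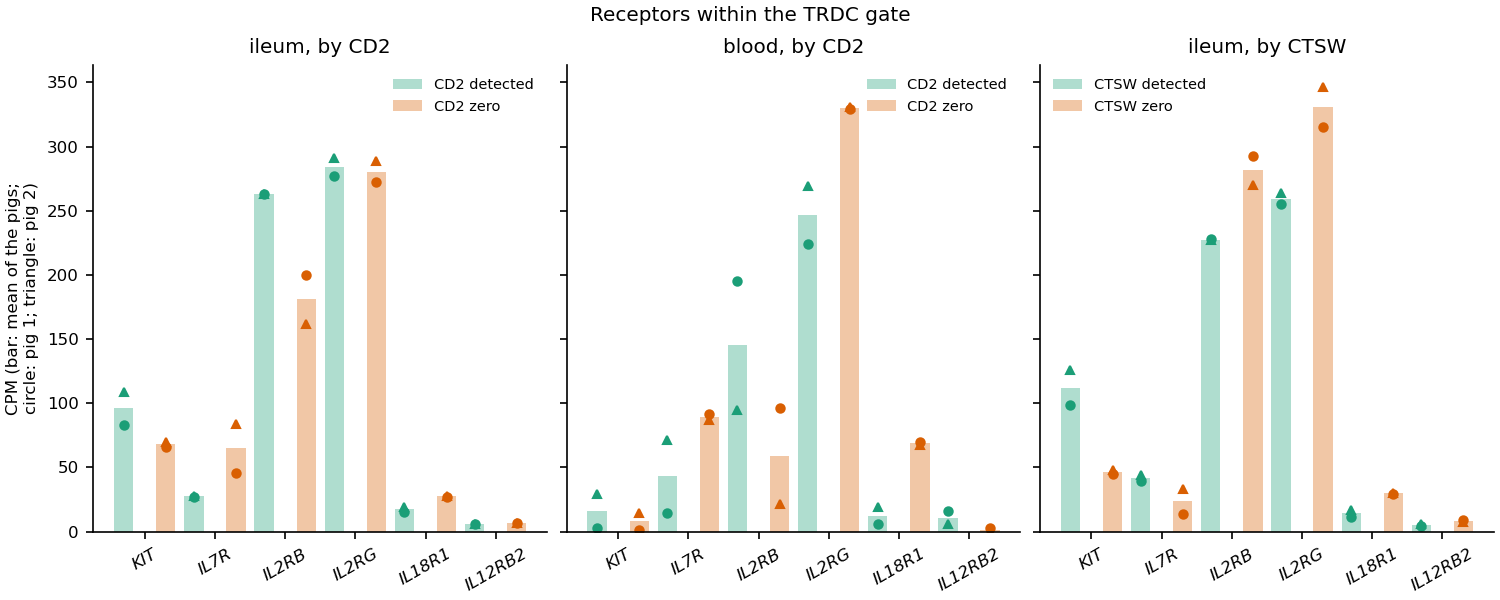
Level of each receptor in CPM (y axis, linear from 0) in TRDC gate cells split by CD2 in ileum and in blood and by CTSW in ileum; bars are means of the pigs, circles pig 1 and triangles pig 2. In blood, IL18R1 is 69.9 and 67.5 CPM in CD2-zero cells and 5.77 and 19.0 in CD2-detected cells, and in ileum KIT is higher in CTSW-detected cells of both pigs.

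Partner chains and signalling genes were followed as a list of 37 genes, of which 20 were measured highly enough between ileal gates. A gene could pass this count filter through the IL22 gate alone. IL23R held 77.8 CPM there and at most 3.05 CPM in any other ileal gate. Of 6 listed IL-12, IL-18 and IL-1 family chains, 4 passed here and 1 passed for ileum against blood, a fit without the IL22 gate. The rise of such genes was partly set by the filter, so the count that follows is a description only. In the IL22 gate, where 10.7% of all genes were called, 6 of the 20 rose and none fell: IL2RA, the high-affinity IL-2 receptor chain, by 3.76 (SE 0.17, adjusted p = 8.23e-08), IL4R by 1.07 (SE 0.24, adjusted p = 0.0126), the IL-1 receptor IL1R1 by 5.56 (SE 0.69, adjusted p = 2.23e-04), IL23R by 5.17 (SE 0.38, adjusted p = 3.29e-06), IL18RAP, the partner of IL18R1, by 2.73 (SE 0.67, adjusted p = 0.0208), and MYD88, the adaptor of the IL-1 and IL-18 receptors, by 1.09 (SE 0.19, adjusted p = 0.00286). Without the library labelled whole ileum pig 1, IL4R (0.89, adjusted p = 0.141) and IL18RAP (2.80, adjusted p = 0.0582) were not called, and with gates on the gate gene alone IL4R was 0.37 (adjusted p = 0.214). Of the 20, 7 rose in the CD4 gate (6 without that library), where 15.8% of all genes were called, among them IL21R by 1.23 (adjusted p = 7.40e-04), SOCS3, a feedback inhibitor of cytokine signals, by 2.35 (adjusted p = 0.00137) and STAT4, the transcription factor used by IL-12, by 1.19 (adjusted p = 0.00159). In the CTSW gate 2 of the 20 fell, a share near the 7.40% of all genes called there. They were STAT5A, by 0.93 (adjusted p = 0.0194), and STAT5B, by 0.87 (adjusted p = 0.00451), and neither was called without pig 1, without pig 2, with gates of 2 UMIs or with gates on the gate gene alone (-1.05 to -0.33, adjusted p = 0.0507 to 0.383). No partner gene was called between the TRDC and CD8B gates, and with the pig as a block 1 was.

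Between ileum and blood, IL2RA and IL21R rose in ileum in all 4 gates, by 1.81 to 2.89 and by 1.05 to 3.39, and CISH, a feedback inhibitor induced by STAT5, fell in all 4, by 2.22 to 3.36. In each of the 4 gates the calls for IL2RA and CISH were lost when 1 or the other pig was left out. The values were then 1.76 to 3.12 for IL2RA and -3.06 to -1.56 for CISH. The IL21R calls were lost in this way in the CD4 and CD8B gates. The CD4 gate call for IL2RA was not kept without the library labelled whole ileum pig 1 (1.82, adjusted p = 0.0680), and in the CTSW gate the calls for IL2RA (1.88, adjusted p = 0.184) and CISH (-3.06, adjusted p = 0.0596) were not kept without cells carrying CD3D or CD3G. In the TRDC gate IL9R fell by 2.62 (SE 0.55, adjusted p = 0.0121; with DESeq2, -2.68 and adjusted p = 0.0604). In the CTSW gate IL12RB1, the partner of IL12RB2, fell by 3.41 (SE 0.56, adjusted p = 0.00106; without cells carrying CD3D or CD3G, -2.27 and adjusted p = 0.120) and JAK1, a kinase bound by several of these receptors, by 1.10 (SE 0.13, adjusted p = 9.12e-05). IL21, the helper T cell cytokine received through IL2RG, was 5.61 and 12.3 CPM in the ileal CD4 gate and at 0 in the blood CD4 gate (adjusted p = 0.0462, and 0.234 with DESeq2). With at most 2 UMIs in any other gate of that fit, IL21 passed the count filter only through the ileal CD4 gate, so its rise is a description. Between PP and non-PP, IL4R fell by 1.70 in the CD4 gate of PP (SE 0.32, adjusted p = 0.0107; without pig 1, -1.19 and adjusted p = 0.489). In the splits by CD2 and CTSW no partner gene was called, and with the pig as a block 1 to 3 were in each split. Of the 38 partner gene values past the threshold that the naming rule took, only 12 were kept under every alternative. Without the library labelled whole ileum pig 1, 5 were not called, and 0 lost the call with the block.

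Of the ligands, KITLG, IL7 and IL18 had their highest ileal levels in stromal or myeloid cells. KITLG, stem cell factor, was 42.7 and 11.7 CPM in the ileal stromal cells of pig 1 and pig 2 (83 cells in all) and 7.77 and 0.514 in the epithelial cells (576 in all). IL7 was 71.1 and 23.4 CPM in the stromal and 13.5 and 12.3 in the epithelial cells. The 10023 ileal B cells held more IL7 UMIs than either, 97, at 2.52 and 1.87 CPM, and in blood IL7 was 12.0 and 15.6 CPM in B cells. IL18 was 401 and 192 CPM in the ileal myeloid cells and 67.9 and 30.8 in the epithelial cells. Of the 73 IL21 UMIs in ileum, the CD4 gate held 24 and any other ileal gate at most 2, so that many lay in cells of no gate. IL12A gave 108 UMIs in ileum, with 58 in B cells and at most 5 in any other ileal gate. These sums rest on few cells, with 14 KITLG UMIs and 24 IL7 UMIs in the stromal gate.

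Genes whose pattern was most like each receptor were named by Pearson's r of log2(CPM + 1) over 62 sums per library and gate of at least 20 cells, in 10 gates that include the B cell, myeloid, mast cell, epithelial and stromal ones. The sums of a library share its depth and free RNA, and r is given as a description. For KIT these were TIMP1 (r = 0.780), MAP3K8 (r = 0.748), CD109 and RIN2 (both r = 0.721) and JAML (r = 0.719). IL7R and IL18R1 were among the 5 most like each other (r = 0.875), and both lists held CD40LG, the helper T cell ligand of CD40 (r = 0.854 and 0.845). IL2RB was most like TRAT1 (r = 0.959) and CST7 (r = 0.932), and IL2RG was like LSP1 (r = 0.901), ARHGAP4 (r = 0.90) and JAK3 (r = 0.899), the kinase that binds the common gamma chain. IL12RB2 was most like SNRK (r = 0.750) and PTPN4 (r = 0.727), followed by IFNG (r = 0.724), the gene of interferon-gamma. KIT correlated weakly with the 5 other receptors (r = -0.190 to 0.418).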

How the data were processed

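Cells were captured with 10x Genomics 3′ v2 chemistry. The authors counted UMIs with Cell Ranger against the Sscrofa11.1 assembly with a modified Ensembl annotation, and the deposited matrices hold raw UMI counts for all barcodes of 8 libraries (4 runs each), before the authors' ambient RNA, doublet and cell filters. Cells passing the filters named above were gated, and counts were summed per pig and gate, or per library for PP against non-PP. Sums of under 20 cells were left out.

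Sums were tested with edgeR 4.0.16 (R 4.3.3) by glmQLFit and glmQLFTest after TMM scaling and filterByExpr, without a block, with Benjamini-Hochberg adjustment over all genes tested and a threshold of 0.05. SE is the log2 fold change over the square root of F. The replicate number is the animal, so it pairs the samples. The correlation of the deviations of the pigs between sums ran from 0.0937 to 0.623 (10 pairs) in the ileal gates and from 0.0922 to 0.575 (28 pairs) in ileum and blood. It ran from -0.0984 to 0.645 (91 pairs) per library, and from 0.245 to 0.513 and 0.387 to 0.534 (6 pairs each) in the splits by CD2 and CTSW. Shares of cells were computed after thinning each cell to the minimum of UMIs for a kept cell.

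The members and gene lists were chosen with earlier results of these data known. The genes named were the 6 members, up to 4 genes of each partner list with the largest changes past the threshold, and the 5 genes most like each member among those with a mean of at least 5 CPM, gate and marker genes left out. CPA3, IL15RA, CRLF2, SOCS2 and TSLP were not named in the matrices and were not analysed here. Of the 25880 genes, 17733 were named in the matrices, and 977 were named through the supplied gene name table. No sequence was used here.

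The test was tried on simulated data. With changed genes seeded into the IL22 gate, 46.9% of 2-fold and 84.4% of 4-fold changes were recovered (7436 genes), and 37.5% and 92.9% for ileum against blood in the TRDC gate (8439 genes). For CD2 in blood, 18.9% and 74.7% were recovered (7192 genes). Unchanged genes called were 6, 8 and 3 in these comparisons in turn. The simulated sums were drawn independently, without a pig effect or other differences between gates, so recovery in the data itself can differ. Alternatives were DESeq2 1.42.0, its size factors, no count filter, the pig as a block, each pig left out, doublets removed (2.76% to 3.65% of cells called), stricter cell filters (2000 UMIs, 800 genes, 10% mitochondrial), gates of 2 UMIs or of the gate gene alone, sums per library, shared barcodes removed and the library labelled whole ileum pig 1 left out. Innate gates without CD3D and CD3G, and cells without mast cell list UMIs, were added after seeing the data. Intervals and floors cover counting error only. Values of some genes used in the checks of the gates are not reported here.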

Additional observations from a re-analysis of the deposited data

Results flagged for a closer look

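KIT in the CD8B gate was 23.5 CPM in the non-PP library of pig 1, and the nearest of the 5 other ileal libraries was at 11.7. The gap was 0.649 of the whole range of the 6 libraries, above the limit used for such a gap. Of 29 sets of ileal libraries examined in this way, chance alone would single out about 1 in 20, and no other set was singled out.

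The difference between ileum and blood differed between gates for 3 members by a test of that difference. IL18R1 had a value of -0.85 for ileum against blood in the TRDC gate and values of 0.56 to 1.38 in the 3 others, of which only that of the CD8B gate passed, and the difference was -1.72 (log2, SE 0.34, adjusted p = 0.0446). IL7R stood out upward in the CTSW gate, at 2.25 (SE 0.45, adjusted p = 0.0243). IL2RG stood out downward in the same gate, at -0.84 (SE 0.17, adjusted p = 0.0243). The contrasts share their blood and ileal sums, each has 2 pigs, and none was recomputed with a pig left out. The summed level of the T cell genes CD3D, CD3G, CD5 and CD6 ran from 439 to 2240 CPM in the ileal libraries of the CTSW gate and from 799 to 951 in the blood ones, and that of the NK cell or group 1 ILC genes from 3789 to 27526 and from 31880 to 45822. The mix of cells with and without CD2 in the TRDC gate also differed between ileum and blood, as given above. The part of these differences in the results was not tested.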

How the results depend on the processing

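Values of the members with an unadjusted p under 0.05 were recomputed under each alternative. For the differences between gates, only values with an adjusted p under 0.05 were taken, so calls gained there are not counted. Of 698 such values, 565 kept their direction and side of the threshold, 73 lost a call, 57 gained one and 3 changed direction. With DESeq2's size factors in place of TMM, all 52 kept both. The cause of the changes was not tested, apart from the fewer cells, sums or genes that an alternative leaves by construction, and an adjusted p that DESeq2 gave as missing was not counted. Several values rest on few UMIs. KIT had 0 UMIs in the blood CD4 gate, 4 in the CD8B gate, 7 in the CTSW gate and 39 in the TRDC gate. IL12RB2 had 12 in the blood CD4 gate and 27 in the ileal CTSW gate, but 175 in the blood CTSW gate.

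The values that changed direction, all for the CTSW against the T cell gates, were IL2RB (0.72 to -0.71) and IL12RB2 (0.93 to -0.16) without cells carrying CD3D or CD3G, and IL2RG (-0.31 to 0.08) with gates of 2 UMIs. Counts of members called follow, with the count as reported first. The number of all genes called also moved with the alternative, by the ranges further below, which are not matched to single alternatives. A change in the counts of members is therefore not read as a result about the members. For the CTSW gate (2) it was 0 with gates on the gate gene alone, where KIT was 1.40 (adjusted p = 0.0953), and 1 without the library labelled whole ileum pig 1. For the CD4 gate (5) it was 3 with gates of 2 UMIs and 3 without that library, and for the TRDC against the CD8B gate (2) it was 1 without that library. For ileum against blood in the CD4 gate (2) it was 0 with the stricter cell filter, gates of 2 UMIs, gates on the gate gene alone, shared barcodes removed or that library left out, and 1 with doublets removed, sums per library or cells without mast cell UMIs. In the CD8B gate (3) it was 1 with the stricter filter and with gates of 2 UMIs. In the TRDC gate (2) it was 4 with no filter on low counts, 1 with DESeq2 and 1 without that library. In the CTSW gate (4) it was 2 with gates of 2 UMIs and 2 with the gate gene alone. For the differences between gates (3) it was 11 with no filter, 6 with the replicate block, 6 with DESeq2 and 1 without that library. Apart from DESeq2's size factors, no other alternative was applied to these differences.

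For PP against non-PP in the CD4 gate (1) it was 2 with no filter and 2 with the gate gene alone. With the gate gene alone it was 1 in the TRDC gate (0) and 2 in the IL22 gate (0). In the CTSW gate (0) it was 2 with the gate gene alone and 1 with each of no filter, the replicate block, DESeq2, that library left out, shared barcodes removed and cells without mast cell UMIs. For CD2 in ileum (0) it was 1 with no filter. For CD2 in blood (0) it was 4 with no filter and 1 with each of the replicate block, DESeq2, doublets removed, gates of 2 UMIs and sums per library. For CTSW in the CD8B gate (0) it was 2 with no filter, 3 with the replicate block and 1 with sums per library. For CTSW in the TRDC gate (0) it was 3 with no filter, 5 with the replicate block, 2 with the gate gene alone, 2 with sums per library and 1 with each of DESeq2, doublets removed, the stricter filter, gates of 2 UMIs and shared barcodes removed. The block changed no call of a member beyond those given above.

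With each pig left out in turn, members called ranged from 2 to 4 for the IL22 gate (5), 1 to 2 for the CTSW gate (2), 2 to 5 for the CD4 gate (5) and 1 to 2 for the TRDC gate (2). For ileum against blood they ranged from 0 to 0 in the CD4 gate (2), 0 to 1 in CD8B (3), 1 to 2 in TRDC (2) and 1 to 2 in CTSW (4). For PP against non-PP in the CD4 gate (1) they ranged from 0 to 1, and for CD2 in blood (0) from 1 to 1. A lone sum left by this step was assumed to vary like the others.

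Genes called over the whole table moved by over 1.5 times in every comparison, with the count as reported, then the lowest and highest over the alternatives other than leaving out a pig. Between ileal gates these were 841 (554, 1091) for IL22, 581 (9, 1014) for CTSW, 1238 (661, 1893) for CD4 and 373 (57, 1035) for TRDC. For ileum against blood they were 927 (302, 1354) in CD4, 1159 (633, 1808) in CD8B, 1391 (1050, 2135) in TRDC and 1604 (931, 2511) in CTSW. For PP against non-PP they were 54 (10, 144) in CD4, 20 (1, 101) in CD8B, 36 (9, 787) in TRDC, 263 (1, 1016) in CTSW and 5 (3, 502) in IL22. For the splits they were 9 (2, 231) for CD2 in ileum, 20 (1, 441) for CD2 in blood, 46 (10, 650) for CTSW in the CD8B gate and 54 (15, 779) for CTSW in the TRDC gate.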

Other observations

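Members were often detected together in cells of the IL22 gate, as shares without thinning. A median of 2 of the 6 members was detected per IL22 gate cell (median depth 2857 UMIs) and of 1 in each of the other ileal and blood gates. The number of members detected was 0 in 49 of the 245 cells and 5 in 17 of them. IL7R and IL2RG, the pair that forms the IL-7 receptor, were detected together in 35.1% of IL22 gate cells, against 11.7% in the CD4 gate (2473 UMIs) and 4.81% in the TRDC gate (2776 UMIs). IL2RB and IL2RG, the signalling pair for IL-2 and IL-15, were together in 29.8% of IL22 gate cells, 28.1% of ileal TRDC gate cells, 32.0% of blood CTSW gate cells and 35% of blood CD8B gate cells (4071 UMIs), the last being the highest share of this pair. These shares come from cells pooled over the libraries and carry no test.

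FCER1A, which was on the mast cell list, gave 160 UMIs in 119 of the 1076 blood TRDC gate cells and 84 UMIs in 63 of the 4158 ileal ones, while the 4 other mast cell genes measured gave at most 3 UMIs each in either gate. The TRDC gate allowed at most 2 UMIs of the mast cell list in a cell.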
